A study of Homo sapiens with 24 samples.

Results

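H3K4me3 regions inside the bodies of the numbered zinc finger genes (ZNF genes) of human chromosome 19 were examined. A region was taken as a member when it lay on chromosome 19, overlapped the body of a protein-coding gene named ZNF and a number, and did not overlap the 2 kb on either side of any start site of a protein-coding gene. These criteria used only position, and 1338 of the 97545 regions in the deposited H3K4me3 table met them.

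The table came from 8 samples of EndoC-βH3, a human pancreatic beta cell line, 4 of them non-senescent and 4 senescent, with 500000 cells per sample. It is a single line of fetal pancreatic origin that proliferates through hTERT and SV40 Large T, both of which its inducible Cre recombinase removes, and the labels give its genotype as WT. Senescence was induced by 3 weeks of 4-hydroxytamoxifen, which activates that recombinase, and the non-senescent samples are labelled as controls. Senescent cells therefore differed from controls both in the drug and in the loss of the immortalizing genes. H3K4me3 was profiled by MINT-ChIP, in which chromatin of each sample is cut with micrococcal nuclease, barcoded and pooled before a shared immunoprecipitation. For every region the table gives 1 measurement used here, the mean normalized count over all 8 samples, without a value per sample, so no spread between replicates can be given. The columns of the table that compare senescent with non-senescent cells are the result of the study's own test and were not used, so no difference between the states is described. The other 16 samples, profiled for H3K27me3 and H3K9me3, were not analysed here.

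Zinc finger genes of this kind encode DNA-binding proteins built from tandem C2H2 fingers, and most of those on chromosome 19 also carry a KRAB domain. KRAB zinc finger proteins recruit the co-repressor TRIM28 and the histone methyltransferase SETDB1, chiefly to transposable elements. The genes arose by tandem duplication, stand in clusters, and mostly encode all their fingers in a single long 3′ exon. That exon is known for carrying H3K9me3 together with ATRX and ZNF274 in many human cell types. H3K4me3 is best known as a mark of active promoters.

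The gene models bore out the label. Of the 246 ZNF genes on chromosome 19, 242 had at least 1 coding exon with 3 or more C2H2 motifs in its translation, referred to below as the zinc finger exon. The exceptions were ZNF414, ZNF428, ZNF541 and ZNF653. The median gene encoded 12 fingers and the largest encoded 36. The longest zinc finger exon was centred in the last of 3 equal parts of the gene in 183 genes, in the middle part in 49 and in the first part in 10. In most genes it thus lay toward the 3′ end.

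Stretches of 300 bases from the 2 strongest members with at least that much overlap with a zinc finger exon are shown, 5′ to 3′ on the strand of the gene in hg38, because they hold the repeat that this exon is made of. Capitals mark matches to ACNGGNGANAANCCN, any codons for the peptide that links one C2H2 finger to the next.
ZNF567, chr19:36719657-36719956, plus strand: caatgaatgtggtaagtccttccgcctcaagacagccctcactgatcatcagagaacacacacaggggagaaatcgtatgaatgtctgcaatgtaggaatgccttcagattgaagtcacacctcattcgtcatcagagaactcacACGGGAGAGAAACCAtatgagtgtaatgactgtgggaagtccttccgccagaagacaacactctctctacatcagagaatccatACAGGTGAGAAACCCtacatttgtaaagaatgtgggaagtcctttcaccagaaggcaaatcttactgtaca
ZNF564, chr19:12527033-12527332, minus strand: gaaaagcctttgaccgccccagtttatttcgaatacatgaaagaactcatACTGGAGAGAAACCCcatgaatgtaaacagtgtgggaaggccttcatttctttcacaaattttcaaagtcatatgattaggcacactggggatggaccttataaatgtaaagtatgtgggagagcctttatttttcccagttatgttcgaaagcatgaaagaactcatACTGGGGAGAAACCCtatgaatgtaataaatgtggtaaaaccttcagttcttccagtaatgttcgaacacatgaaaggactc

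The pieces of ZNF567 and ZNF564 each held 2 matches, 84 bases apart in ZNF567 and 168 apart in ZNF564. A C2H2 finger with its linker takes 28 codons, or 84 bases. Searched on both strands, the motif occurred in 126 of the 180 members on a zinc finger exon (70.0%) and in 10 of the 1158 other members. On the strand of the gene there were 525 matches in members, and on the opposite strand 49. Of 399 gaps between successive matches, 262 (65.7%) were exactly 84 bases and 373 (93.5%) were a whole multiple of 84. Zinc finger exons were defined by their C2H2 motifs, so the contrast between members on and off them and this spacing largely follow from that definition. The member with the most matches held 14. Over all members, 136 (10.2%) held the motif. It was present in 7.94% of regions in ZNF gene bodies of other chromosomes and in 1.08% of chromosome 19 regions outside ZNF genes and promoters. Among regions exactly 500 bp wide, 5.10% of 588 members and 0.140% of 35643 other regions of the series held it.

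The 2 strongest members that touched no annotated exon of any gene are shown in the same way as a contrast. Here capitals mark CG dinucleotides, since CpG-rich sequence is typical of promoters.
ZNF507, chr19:32373968-32374267, plus strand: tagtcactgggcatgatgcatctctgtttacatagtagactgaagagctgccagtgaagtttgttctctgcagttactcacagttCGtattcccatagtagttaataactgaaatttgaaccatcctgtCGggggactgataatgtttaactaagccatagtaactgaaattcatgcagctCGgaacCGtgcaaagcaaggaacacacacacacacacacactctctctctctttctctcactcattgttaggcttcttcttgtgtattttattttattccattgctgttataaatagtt
ZNF383, chr19:37238244-37238543, plus strand: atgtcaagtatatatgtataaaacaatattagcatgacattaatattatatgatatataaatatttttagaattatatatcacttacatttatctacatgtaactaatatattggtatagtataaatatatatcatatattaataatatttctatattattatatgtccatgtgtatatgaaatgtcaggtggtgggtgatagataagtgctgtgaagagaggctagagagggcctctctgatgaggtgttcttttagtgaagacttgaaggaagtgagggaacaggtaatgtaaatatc

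These intronic pieces held 4 and 0 CG dinucleotides in ZNF507 and ZNF383, and their GC contents were 39.7% and 27.3%. They shared no repeat unit of the kind seen in the exons. ZNF507 encodes a zinc finger protein that is not of the KRAB type, while ZNF383 is a KRAB zinc finger gene.

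Members made up 45.9% of the 2916 chromosome 19 regions outside promoters (95% Wilson interval 44.1 to 47.7%, counting error only), while the ZNF gene bodies held 13.1% of the chromosome's bases outside promoters. Per Mb of sequence outside promoters there were 225 regions in chromosome 19 ZNF gene bodies and 79.6 in the bodies of ZNF genes on other chromosomes. Other protein-coding gene bodies of chromosome 19 held 34.6 regions per Mb, the chromosome outside protein-coding genes 43.8, and the whole genome outside promoters 27.4. The ZNF gene bodies of chromosome 19 thus had the highest density of these 5 compartments. Regions covered 18.7% of their bases, against 7.62% in ZNF genes elsewhere and 3.01% of chromosome 19 outside ZNF genes. These are descriptions without a test, since regions are not replicates of a condition.

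The members were many but weak. Their median mean normalized count was 3.37 (quartiles 2.25 and 5.63, range 0.487 to 60.5), and 35.3% of them reached the median of all regions in the series, which was 4.40. The medians were 3.48 for ZNF gene bodies off chromosome 19, 2.78 for chromosome 19 outside ZNF genes and 3.49 for all regions outside promoters. Because regions differed in width, the count was also taken per kb of region. The median per kb was 5.26 for members, 5.30 for ZNF gene bodies elsewhere, 4.78 for the rest of chromosome 19 and 5.54 for all regions outside promoters. Members had a median width of 591 bp, and 588 of them (43.9%) were exactly 500 bp wide. Those wider than 2 kb or equal to it numbered 78, and the widest spanned 5940 bp. Median GC content was 39.6% in members, 39.2% in ZNF genes elsewhere and 43.6% in the rest of chromosome 19.

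Members were weaker than the regions at the start sites of the same genes. Within 2 kb of a start site, 598 regions overlapping these genes had a median mean normalized count of 8.34. The median was 3.40 for the 403 members that lay 2 to 5 kb from the nearest start site, 3.53 for the 432 at 5 to 10 kb, 3.25 for the 377 at 10 to 20 kb and 2.71 for the 126 farther away. Per kb of width the medians were closer, 7.72 at start sites and 5.41, 5.38, 5.17 and 4.71 in the same order of distance. Among 201 genes with both a member and a region at a start site, the strongest start-site region per kb exceeded the strongest member in 195 and fell below it in 6. The medians of these gene maxima were 19.7 per kb at start sites and 8.08 per kb in the gene body. In 12 genes with a member, no region lay at a start site of the gene.

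Position within the gene was described next. Every base of the ZNF gene bodies outside the start-site windows was put in 1 of 5 classes, and a member was given the first class in this order that it touched. There were 180 members on a zinc finger exon (13.5%, Wilson interval 11.7 to 15.4%), 125 on another coding exon (9.34%), 158 on a 3′ UTR (11.8%), 33 on another exon, a 5′ UTR or an exon of a noncoding transcript (2.47%), and 842 in introns (62.9%). Introns made up 82.7% of the sequence and zinc finger exons 5.26%. The 2 kinds of share are not counted alike, since any overlap with an exon took a member out of the intron class. By bases, introns held 821 kb and zinc finger exons 125 kb of the 1115 kb covered.

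Members covered 39.8% of zinc finger exon bases, 24.9% of other coding exon bases, 24.2% of 3′ UTR bases, 18.8% of other exon bases and 16.7% of intron bases. Coverage of the zinc finger exons was 2.27 times that of the rest of the gene body, 17.6%. In ZNF genes of other chromosomes the zinc finger exons were covered to 31.1% and the rest to 7.08%, a ratio of 4.40. The excess on the zinc finger exon was thus also found off chromosome 19, and there it was larger relative to a lower level in the rest of the gene. GC content of the sequence was 43.2% in zinc finger exons and 42.4% in introns.

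**Figure D1:**
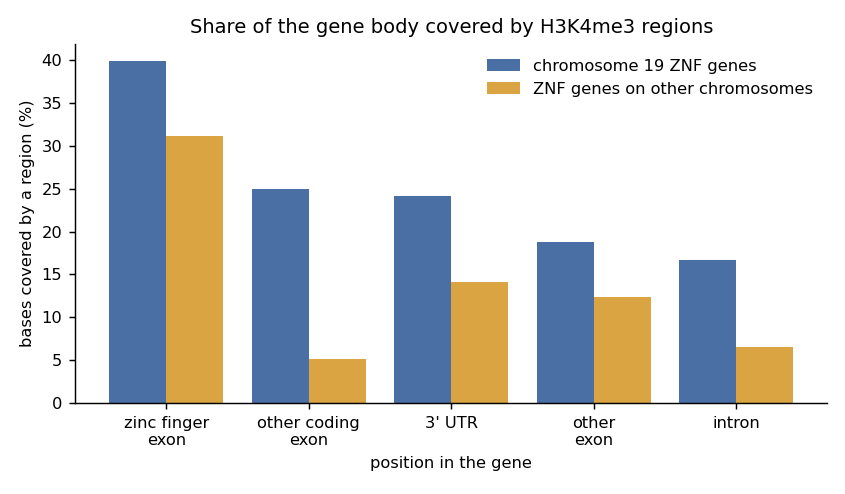
Share of bases covered by an H3K4me3 region (y axis, percent) for each position in the gene (x axis), with blue bars for chromosome 19 ZNF genes and yellow bars for ZNF genes on other chromosomes, start-site windows left out. The zinc finger exon is the most covered class in both sets, at 39.8% and 31.1%, and introns on chromosome 19 stand at 16.7%.

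Members on zinc finger exons were also wider and stronger than the others. Their median mean normalized count was 5.39 and their median width 884 bp, against 3.20 and 537.5 bp in introns. Per kb the medians were closer, 5.99 on zinc finger exons, 5.398 on other coding exons, 5.07 on 3′ UTRs and 5.09 in introns. Of the 141 members with a mean normalized count of 10 or more, 59 (41.8%) were on a zinc finger exon. Put the other way, 32.8% of members on a zinc finger exon and 7.08% of the rest reached that count. Both the count and the overlap with an exon rise with the width of a region, so these shares are not independent of width. Where only regions centred in the exon were counted, the share of members there was 8.67%.

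**Figure D2:**
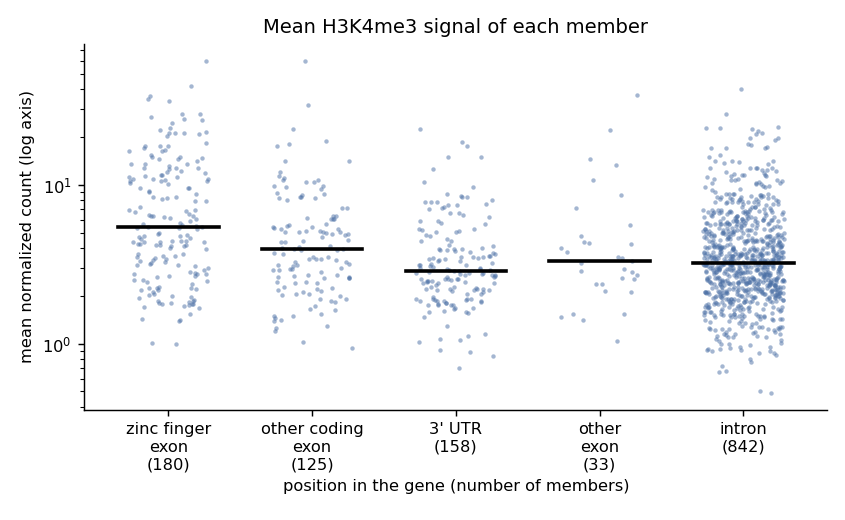
Mean normalized count over the 8 samples (y axis, log scale) of each of the 1338 members (points, spread sideways at random) by position in the gene (x axis, with the number of members). Black lines are medians, which run from 2.85 on 3′ UTRs to 5.39 on zinc finger exons, and the classes overlap over most of their range.

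Gene by gene, the zinc finger exon lay at least in part outside the start-site windows in 213 genes, and a member overlapped it in 143 of these (67.1%). It was covered to 50% or more in 76 genes and to 90% or more in 30. Coverage of the exon exceeded that of the rest of the same gene in 124 genes, fell below it in 64 and was equal in 25. Those 25 genes held no member at all. The median gene had 33.8% of its zinc finger exon and 20.5% of the rest covered. Coverage was 44.1% over the 34 genes with 3 to 8 fingers, 40.8% over the 67 with 9 to 12, 40.8% over the 70 with 13 to 16 and 35.7% over the 42 with 17 or more. The genes in these bins with a member on the exon numbered 19, 45, 49 and 30. From the fewest to the most fingers, the covered share of the exon was thus lower while a larger share of genes had a member on it. Any overlap counted, and an exon with more fingers is a longer target, so that share of genes is not independent of exon length.

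Along the exon, coverage was highest at its 5′ edge. The last 500 bases before the exon were covered to 44.4%, the first 10% of the exon to 48.1% and its last 10% to 33.1%. Farther out, coverage was 22.7% in the 500 bases closest to 10 kb upstream and 13.3% in those closest to 10 kb downstream. Divided into 5 equal parts, the exons were covered to 46.1%, 41.6%, 38.2%, 38.5% and 34.9% from 5′ to 3′. Across the whole gene body, divided into 10 equal parts, coverage was lowest in the first at 10.4%, highest in the eighth at 23.5%, and 21.9% in the last. By midpoint, 39.9% of members lay in the last of 3 equal parts of the gene (Wilson interval 37.3 to 42.6%), which held 36.4% of the bases open to them. The first part held 24.96% of members and 28.7% of the bases. The lean toward the 3′ end of the gene was thus small beside the excess at the zinc finger exon, which extended into the 500 bases before it.

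**Figure D3:**
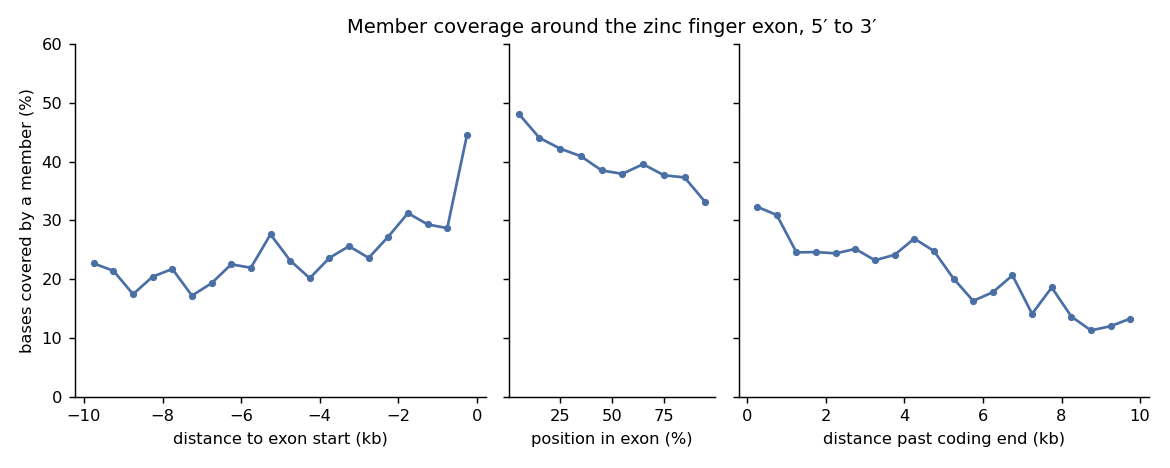
Share of bases covered by a member (y axis, percent) upstream of the zinc finger exon (left, kb), through the exon scaled to its length (middle, percent) and past its coding end (right, kb), in the direction of transcription and within the gene body. Coverage steps up to 44.4% in the last 500 bases before the exon and falls along it to 33.1%.

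The strongest members by mean normalized count were led by a region of ZNF473, a zinc finger gene known for its role in histone pre-mRNA processing. This 3544 bp region, chr19:50049933-50053477, had a count of 60.5, lay on a coding exon with fewer than 3 fingers and came within 2 kb of the start of an annotated lncRNA, ZNF473CR. Its GC content of 49.0% and 26.8 CpG per kb stood above the members' medians of 39.6% and 7.38. Next came ZNF567 at 60.02, whose 5940 bp region, chr19:36715622-36721562, was the widest member and covered the whole eligible zinc finger exon of ZNF567. This region also lay in the overlapping gene ZNF850. ZNF564 followed at 41.5 with a 4933 bp region, chr19:12523824-12528757, that also covered the whole eligible exon.

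An intronic region of ZNF83, chr19:52599348-52602088, reached 39.9, with 51.2% GC, and was the other of the 10 strongest that lay near a noncoding start site. A region of ZNF709, chr19:12494725-12496455, reached 36.8 and lay on an exon outside the coding sequence and the 3′ UTR, with 43.4 CpG per kb. The remaining 5 were ZNF254 at 36.1 (chr19:24123448-24127461), ZNF180 at 34.7 (chr19:44476901-44479920), ZNF606 at 33.6 (chr19:57976935-57981913), ZNF420 at 31.6 (chr19:37112349-37115429) and ZNF790 at 27.9 (chr19:36818139-36820490). All of these except ZNF420 were on a zinc finger exon, which made 6 of the 10. The ZNF420 region was on another coding exon and also lay in the overlapping gene ZNF585A.

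Ranked per kb of width, a different set led, and 3 members were in both lists. ZNF709 was first at 21.3 per kb, followed by an intronic region of ZNF544 at 17.2, the ZNF473 region at 17.1, an intronic region of ZNF653 at 16.6, and intronic regions of ZNF507 at 15.9 and ZNF536 at 14.7. The ZNF83 region reached 14.6, ZNF699 had 13.3, and ZNF382 held the last places with intronic regions at 12.8 and 12.4. Among these 10 only the ZNF699 region was on a zinc finger exon. The 6 exon members ranked by count were 2351 to 5940 bp wide. At the other end, 247 members had a mean normalized count under 2.

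By gene, 213 of the 246 ZNF genes held at least 1 member, with a median of 6 and up to 28, and 42 genes held 10 or more. The 33 genes without one were short, with a median of 4.54 kb outside start-site windows against 20.4 kb in genes with a member. The number of members rose with that length across genes (Spearman rho 0.69 over 246 genes, which share libraries and in places sequence, given as a description). The longest gene without a member was ZNF541, with 42.4 kb, which has no zinc finger exon under the definition used. ZNF486, ZNF85 and ZNF493 followed with 31.3, 21.2 and 20.3 kb. Bodies overlapped in places, and 80 members lay in more than 1 ZNF gene.

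ZNF420 held the most members, 28 in 112 kb outside start-site windows, with a median count of 2.98. None of them was on its zinc finger exon, which lay wholly within a start-site window. ZNF91, known for repressing SVA retrotransposons, held 27, of which 2 were on its zinc finger exon, and their counts ran from 1.54 to 14.1. ZNF345 held 24, and its exon was covered to 93.2% while the rest of the gene was covered to 31.4%. ZNF44 held 22 and had 85.7% of its eligible zinc finger exon sequence covered, against 21.3% of the rest. ZNF568 held 18, with 46.3% of its exon and 16.6% of the rest covered. In ZNF345, ZNF44 and ZNF568 the exon was thus more covered than the rest of the gene.

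Other genes rich in members lacked this excess. ZNF585A held 21 members and had 39.8% of the rest of the gene covered but 0.0% of the 2015 eligible bases of its zinc finger exon. ZNF98 held 19, the strongest at 6.73, and had 8.26% of the rest and 0.0% of the exon covered. In ZNF569, with 18 members, 1.87% of the exon and 39.2% of the rest were covered. ZNF529 and ZNF540 held 21 each, and their exons lay wholly or mostly inside start-site windows, with 0 and 272 eligible bases.

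**Figure D4:**
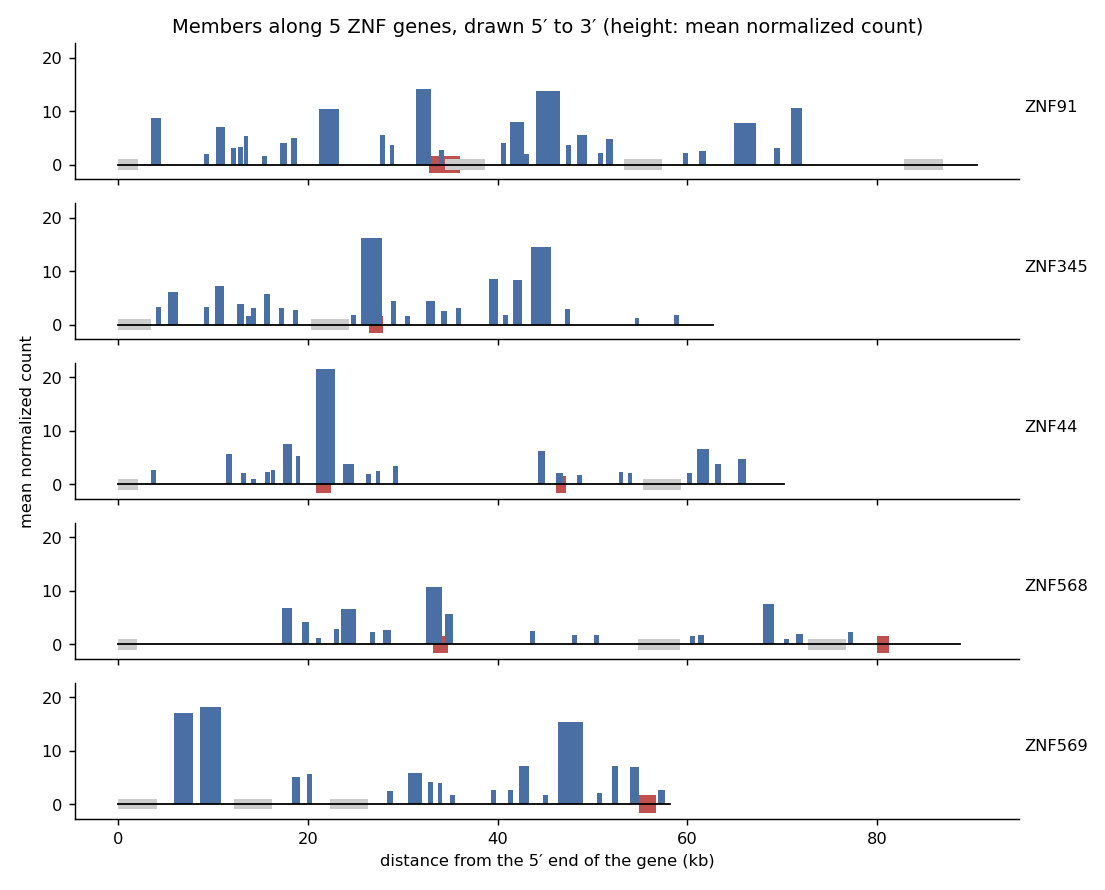
Members (blue, height is the mean normalized count on the y axis) along the 5 genes with the most members among those with a member on their own zinc finger exon, by distance from the 5′ end of the gene in kb (x axis). Red blocks are zinc finger exons and grey blocks are the start-site windows left out. The tallest ZNF44 and ZNF345 members sit on the exon, while in ZNF569 the taller members lie elsewhere.

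Per length, among genes with at least 20 kb outside start-site windows, ZNF551 was densest with 15 members, or 51.3 per 100 kb, followed by ZNF264 with 44.4 and ZNF571 with 44.2. The sparsest gene with a member was ZNF536, a long gene known from neural cells, with 4 members in 479 kb, or 0.835 per 100 kb. Of these 4 members, 1 was the region that ranked high per kb, and it lay 302528 bp from the nearest protein-coding start site. ZNF90, ZNF626, ZNF507 and ZNF492 each held 1 member, at 2.32 to 3.19 per 100 kb. These genes were chosen by density after the values had been seen.

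Over 1136 pairs of neighbouring members of the same gene the median gap was 1300.5 bases, and 40.4% of gaps were under 1 kb.

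Along the chromosome, members occurred in 23 blocks of 2 Mb, and 17 blocks held 10 or more. The fullest block, 36 to 38 Mb, held 290 members (21.7%), among them those of ZNF420, ZNF345, ZNF529, ZNF568, ZNF569 and ZNF567. The block at 52 to 54 Mb held 187, that at 56 to 58 Mb 165 and that at 22 to 24 Mb 98. These 4 blocks together held 740 members (55.3%). With block borders moved by 1 Mb, the fullest block held 12.03% of members, so the share depends on where the borders fall.

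Among the 17 blocks with 10 or more members, density per Mb of ZNF gene body was more even than the counts. It ran from 137 in the block at 22 to 24 Mb to 354 at 34 to 36 Mb. It was 321 in each of the blocks at 36 to 38 and 56 to 58 Mb. Blocks with fewer members varied more, from none at 46 to 48 and 54 to 56 Mb to 373 per Mb at 6 to 8 Mb. The blocks at 20 to 22 and 22 to 24 Mb, which hold the clusters of ZNF43 and ZNF91 next to the centromere, were the sparsest of the full blocks, with 160 and 137 per Mb. Their zinc finger exons were covered to 22.5% and 16.7%, against 59.1% at 36 to 38 Mb and 43.7% at 52 to 54 Mb. In all 17 blocks ZNF gene bodies held more regions per Mb than the sequence outside them. These blocks were picked by their number of members, however. Among the blocks with fewer, ZNF gene bodies were sparser at 30 to 32 Mb (8.35 against 22.2 per Mb). They held none at 46 to 48 and 54 to 56 Mb, against 18.0 and 26.5 per Mb outside them. In the other such blocks ZNF gene bodies were denser. Outside ZNF genes, density was itself highest in the block at 36 to 38 Mb, at 157 per Mb. Zinc finger exons were covered more than the rest of the gene body in 15 of the 17 blocks, the exceptions being 34 to 36 Mb (11.2% against 24.9%) and 42 to 44 Mb (24.2% against 26.7%).

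**Figure D5:**
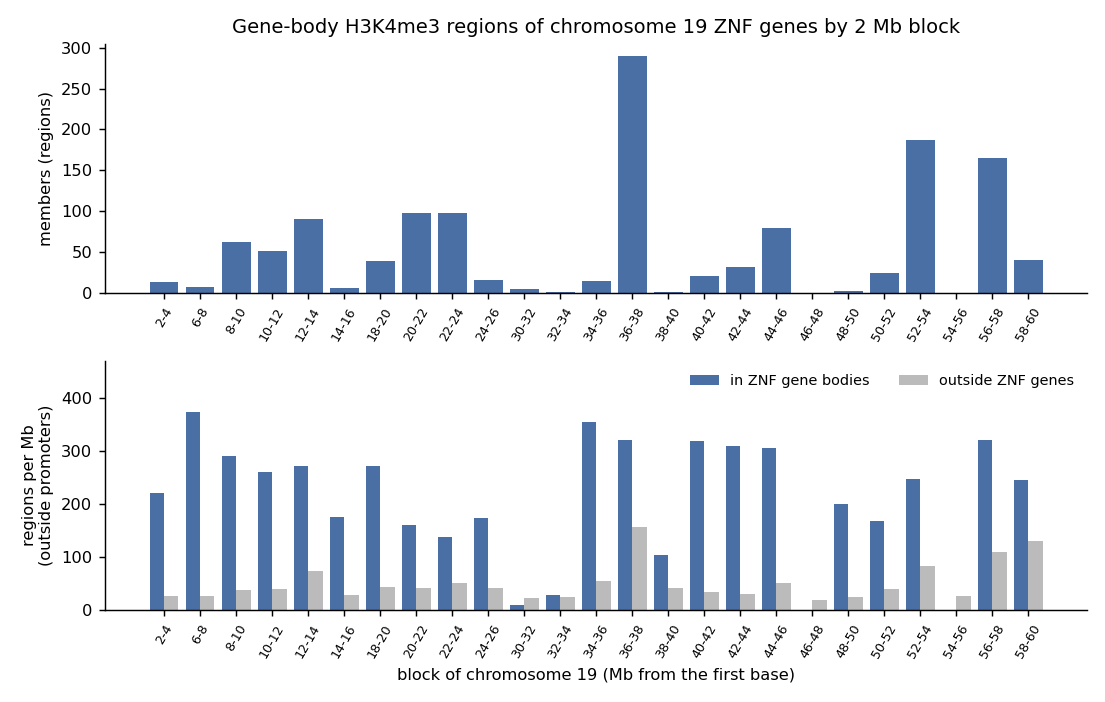
Number of members (upper panel) and regions per Mb outside promoters (lower panel) in each 2 Mb block of chromosome 19 with ZNF gene body (x axis), blue for ZNF gene bodies and grey for sequence outside ZNF genes. Counts peak at 290 in the block at 36 to 38 Mb, while density stays between 137 and 354 per Mb in the 17 blocks with 10 or more members.

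Median mean normalized count per block ran from 2.66 to 5.42 in those 17 blocks. The higher value was at 24 to 26 Mb, where ZNF254 is the only ZNF gene and holds 15 members. The strongest member of a block was on a zinc finger exon in the blocks of ZNF554 (12.6), ZNF699 (24.6), ZNF564, ZNF14 (25.5), ZNF91 (14.1), ZNF254, ZNF567, ZNF45 (21.2), ZNF180, ZNF606 and ZNF8 (26.6). It lay elsewhere in the blocks of ZNF653 (22.4), ZNF43 (14.0), ZNF599 (7.97), ZNF780B (22.4), ZNF473 and ZNF83. The ZNF45 member, chr19:43911744-43915356, was the one with 14 linker matches. No member was found in the ZNF genes of the blocks at 46 to 48 and 54 to 56 Mb, which offered 42.4 and 19.6 kb of sequence.

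Measures that bear on how regions were counted are given beside these results. By counting 24-base stretches over hg38, 1176 members (87.9%) were single-copy and 81 (6.05%), with more than 2 copies, multi-copy. Of the multi-copy members 66 were intronic and 1 was on a zinc finger exon. The remaining members, with more than 1 and up to 2 copies, count as neither. They included zinc finger exon members of ZNF440, ZNF253 and ZNF93 and the ZNF420 region listed above among the strongest. The multi-copy share was 4.90% in ZNF gene bodies off chromosome 19 and 5.45% in the rest of chromosome 19. How reads with several possible positions were handled is not given in the sources used here, and its part in the values was not tested. A start site of another annotated gene, such as a lncRNA or pseudogene, lay within 2 kb of 132 members (9.87%), against 8.99% of all regions outside promoters. The median count was 3.30 in these members and 3.38 in the others.

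ZNF274, a KRAB zinc finger protein known to bind the 3′ exons of other zinc finger genes, is itself a member gene. It held 8 members. The strongest were intronic, with mean normalized counts of 21.2 and 20.9, and 1 member with a count of 7.84 lay on its zinc finger exon, which encodes 5 fingers. The other 5 ran from 0.980 to 5.95. Regions in the bodies of other genes of the same silencing pathway were also counted. Of TRIM28, SETDB1, ATRX, DAXX, CBX1, CBX3 and CBX5, 3 held any, with 6 regions in all. TRIM28, DAXX and CBX3, which held none, are short, at 6.66, 4.46 and 12.4 kb. CBX1 also held none and is longer, at 31.4 kb, near the 38.5 kb of SETDB1. How much of each gene lies outside start-site windows was not computed. For scale, the whole genome outside promoters held 27.4 regions per Mb. SETDB1, the methyltransferase, held 1 with a count of 15.5. ATRX, a chromatin remodeller, held 4 with counts up to 1.91 over 281 kb of gene. CBX5, which encodes heterochromatin protein HP1α, held 1 at 1.20. All 7 genes had a region at a start site, the strongest ranging from 37.8 at TRIM28 to 255 at CBX5.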

How the data were processed

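The H3K4me3 values come from MINT-ChIP on EndoC-βH3 cells, 4 samples per state. Reads were aligned by the authors to hg38 with Bowtie2 and processed with samtools, and peaks were called with HOMER findPeaks; tool versions, peak merging, read counting and the treatment of duplicates for this mark are not given in the sources used here. The deposited table holds 1 row per region. The only measurement used is the signal in its mean column, which the authors computed in DESeq2 as the mean of normalized counts over the 8 samples, so depth per sample is unknown and no error between replicates can be given. The other 5 columns hold the authors' comparison of the 2 states (fold change, its error, test statistic and p-values) and were not used. Coordinates are printed as deposited; whether they count from 0 or 1 is not given. Printed sequences count from 1 and come from hg38.

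Regions were set against GENCODE release 44, with all transcripts of 20046 protein-coding genes as start sites. A zinc finger exon is a coding exon whose translation holds 3 or more C2H2 motifs (C-2-C-12-H-3 or 4-H spacing). Signal per kb is the deposited mean divided by width. Copy number is the median count, over 194 hg38 sequences without alternates, of up to 60 stretches of 24 bases, with a median over 2 called multi-copy. Wilson intervals are at 95% and cover counting error only. Named by plan were the 10 genes with most members, the 10 members of highest mean count and the 10 highest per kb. To these were added the strongest member of each 2 Mb block with 10 or more. ZNF274 was named for its known role, beside a list of 7 pathway genes. Other genes were chosen after their values were seen, overlap a named region or lack a zinc finger exon. Up to 300 bases were read from the strongest members with that much zinc finger exon and from the strongest touching no exon; the stretch of the last of 3 in each set is not reported here. The members and lists were chosen with earlier results of these data known. No test was run. The rule and position classes were checked on simulated regions. Python 3.11.15, numpy 2.4.6, pandas 2.3.3, scipy 1.17.1, pysam 0.24.0, numba 0.67.0 and samtools 1.23.1 were used.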

Additional observations from a re-analysis of the deposited data

How the results depend on the processing

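Of 29 alternative values, 21 stayed within the interval of the main value (for counts, within 1.5 times of it) and 8 did not. The interval of the coverage ratio was rescaled from that of the share of members on the exon, not taken from bases. Those of medians came from order statistics that treat regions as independent, so none measures spread between replicates. Keeping only regions with a mean normalized count of at least the median of all regions left 472 members, raised the share on a zinc finger exon to 22.0%, the coverage ratio of that exon over the rest of the gene body to 3.15 and the share in the fullest block to 24.6%. Counting only members centred in the exon gave 8.67%. A window of 5 kb around start sites gave 43.0% of members in the last of 3 equal parts of the gene. Blocks shifted by 1 Mb gave 12.03% in the fullest. Regions exactly 500 bp wide had a median of 4.43 per kb. Using the last coding exon, leaving out multi-copy regions or counting start sites of every annotated gene moved none of the results each was tried on by more than that. No paired analysis was possible because the deposited values are means over all 8 samples, and for the same reason no replicate could be left out. Coverage outside repeats was not run, as the genome sequence used here does not mark repeats. Without values per sample, the depth behind weak regions cannot be stated.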
